A study of Mus musculus with 2 samples.

Results

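The 10 genes described here encode secreted signals by which stromal cells of the gut set Wnt activity in the neighbouring crypt: the Wnt ligands Wnt2b, Wnt4 and Wnt5a, the R-spondins Rspo1, Rspo2 and Rspo3, and the Wnt antagonists Sfrp1, Sfrp2, Dkk2 and Dkk3. They were taken by name, as known stromal Wnt signals of the crypt niche, from 22180 genes that had a probeset of their own on the array. Each was found, 9 with 1 probeset and Sfrp2 with 2. The samples were cultured subepithelial myofibroblasts, contractile matrix-producing cells that lie under the epithelium, taken from the small bowel of BALB/c mice (wild type). The cells of 1 group were left untreated, and those of the other spent 1 day with homogenised eosinophils of the intestine at 5 mg/ml. Triplicate cultures of each condition were pooled before labelling, so that each group is 1 array. No replicate spread and no test exist, and each difference describes these 2 pools.

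Wnt ligands bind Frizzled receptors together with the co-receptors Lrp5 or Lrp6 and stabilise beta-catenin in the receiving cell, which drives target genes and keeps crypt stem cells dividing. R-spondins strengthen that signal by binding Lgr receptors and taking the ubiquitin ligases Rnf43 and Znrf3 away from the Frizzleds. Secreted antagonists limit it, the Sfrp proteins by binding the Wnt ligand and Dkk proteins such as Dkk2 by binding Lrp5 and Lrp6. Wnt5a is known mainly for signalling that does not run through beta-catenin, by way of the receptors Ror1 and Ror2.

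A gene counted as above background when its log2 RMA value passed the 95th percentile of olfactory and vomeronasal receptor probesets, genes not expected in these cells, which was 5.58 on the non-stimulated and 5.57 on the stimulated array. Of all genes, 14068 passed it on at least 1 array. Values of different genes come from different probes and are not set against each other. A source field names eosinophils for both samples while the series title and the protocols name myofibroblasts. All 14 fibroblast and myofibroblast genes listed were above background, and 2 of 9 eosinophil genes were, Alox15 and Cebpe. Alox15 was close to background, at 5.68 on the non-stimulated and 5.87 on the stimulated array. Cebpe, at 5.91 and 5.46, was above it on the non-stimulated array alone. The granule protein genes Epx (4.73 and 5.25) and Prg2 (4.75 and 4.32, non-stimulated and stimulated) were under it. Of 15 epithelial genes 5 were above it, among them Krt8 at 6.45 and 6.23, and the defining gene Epcam was under it at 4.35 and 4.49. Nerve and glia genes were above background as well, 6 of the 7 measured.

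Of the 10 Wnt signals, Dkk2 differed most and read lower with homogenate, Rspo3 read higher by a smaller amount, and the other 7 above background differed by less than 1.2-fold. All but Sfrp2 were above background, and those 9 were above it on both arrays. Of the 9, 4 read higher with homogenate, where 50.2% of all genes above background did, and 5 read lower, where 48.2% did. None reached 2-fold, which 0.192% of all genes reached upwards and 0.0426% downwards. At 1.5-fold, 1 was lower (Dkk2), against 0.64% of all genes, and 0 were higher, against 0.796%. At 1.2-fold, 1 was higher (Rspo3), against 6.11%, and 1 lower, against 6.91%. The median log2 difference, always stimulated minus non-stimulated, was -0.04 over the 9 and 0.00 over all genes. It was 0.03 without Dkk2. With 4 genes higher and 5 lower, the median is the value of Dkk3, and the size of the Dkk2 difference does not enter it. No direction is drawn from its sign.

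**Figure D1:**
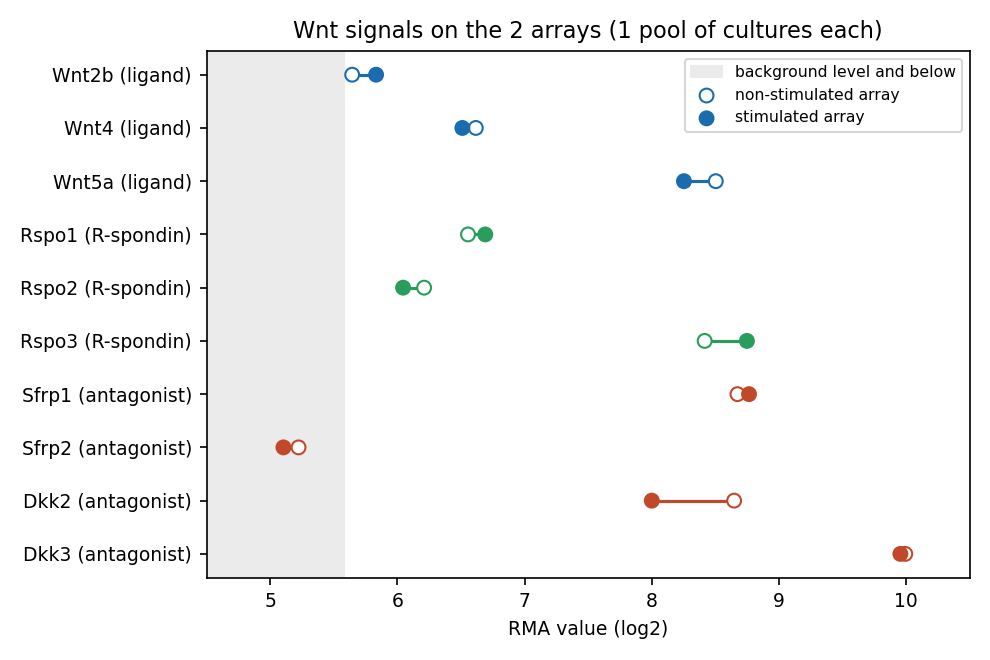
RMA values (log2, horizontal axis) of the 10 Wnt signals on the non-stimulated array (open points) and the stimulated array (filled points), 1 array each, with the background level shaded. Dkk2 has the longest line, from 8.65 to 8.00, Rspo3 runs the opposite way from 8.42 to 8.75, and Sfrp2 lies in the shaded area.

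The Wnt ligand genes differed little. Wnt5a, whose product guides gut elongation and crypt repair, read 8.50 on the non-stimulated and 8.25 on the stimulated array, a log2 difference of -0.25 or 1.19-fold lower. It was lower with homogenate by an amount that 7.61% of all genes reached in that direction. Wnt4, a ligand known from kidney and reproductive tract development, read 6.62 and 6.51, a difference of -0.11. Wnt2b, a stromal ligand of the canonical pathway, read 5.64 and 5.83, a difference of 0.19. Wnt2b lay only 0.065 above background on the non-stimulated and 0.266 on the stimulated array, so its value is close to that of genes taken as not expressed. The ligands thus split, with Wnt2b higher and Wnt4 and Wnt5a lower, each inside the range that held 95% of genes of like signal.

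That range was read from 4 sets of 3517 genes each, split by the mean of both arrays. It ran from -0.51 to 0.48 in the dimmest set, which holds Wnt2b and Rspo2, and from -0.39 to 0.36 in the next, with Wnt4 and Rspo1. In the third, with Wnt5a, Rspo3 and Dkk2, it ran from -0.29 to 0.32, and in the brightest, with Sfrp1 and Dkk3, from -0.25 to 0.29. Of all genes, 5% lie outside these ranges by construction, and Rspo3 and Dkk2 were the members that did.

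The R-spondin genes split as well. Rspo3, the R-spondin best known from intestinal stroma, read 8.42 on the non-stimulated and 8.75 on the stimulated array. This difference of 0.33, or 1.26-fold higher, was reached upwards by 488 of the 14068 genes, and 4.07% of the genes in its set differed by as much in either direction. Rspo3 is therefore just past the edge of its range and no further. Rspo1, which can expand crypts when supplied to mice, read 6.56 and 6.69, a difference of 0.14. Rspo2, which acts through the same Lgr receptors, read 6.21 and 6.04, a difference of -0.17. Rspo1 and Rspo2 lay well inside the ranges of their sets.

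**Figure D2:**
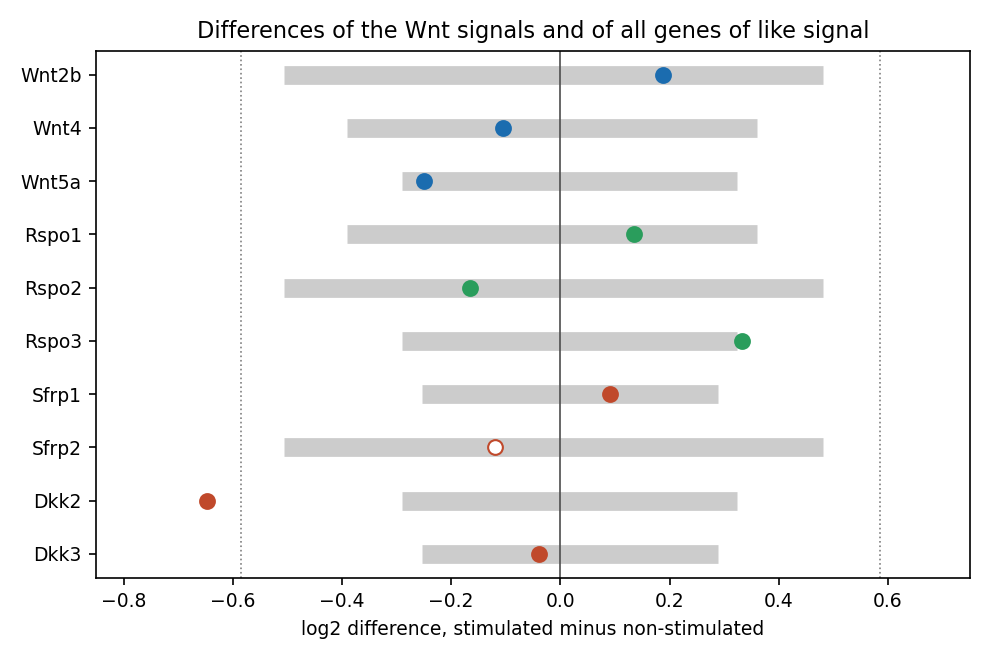
Log2 difference (horizontal axis, stimulated minus non-stimulated) of each Wnt signal, filled where above background and open for Sfrp2; grey bars span the central 95% of differences of all genes in the same of the 4 sets by mean signal, and dotted lines mark 1.5-fold. Dkk2 at -0.65 lies outside its bar and past the left dotted line, Rspo3 at 0.33 lies at the right end of its bar, and the other points lie inside.

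Among the antagonists Dkk2 stood apart in size. Dkk2, which binds Lrp5 and Lrp6 and can act as an antagonist or a weak activator depending on the cell, read 8.65 on the non-stimulated and 8.00 on the stimulated array. The difference of -0.65, or 1.57-fold lower, was reached downwards by 60 of the 14068 genes, and 0.853% of the genes in its set differed by as much in either direction. On both arrays it was far above background, by 3.07 and 2.43. Sfrp1, which binds Wnt ligands with a domain like that of the Frizzleds, read 8.67 and 8.76, a difference of 0.09. Dkk3, a divergent member of its family that does not act on Lrp6 as Dkk1 and Dkk2 do, read 9.99 and 9.95, a difference of -0.04. Sfrp1 and Dkk3 were inside their range. Sfrp2, a relative of Sfrp1, was under background by both of its probesets, at 5.22 and 5.10 with the probeset used and at 5.23 and 5.10 with the other. No difference could be measured for Sfrp2.

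Because Dkk2 had the largest difference of the group, the RefSeq window around its start is shown, with 250 bases before and 50 after the start site (GRCm38.p6, chr3:132085042-132085341, plus strand). Capitals mark a match to the TATA box letters TATAAA, the first of them 32 bases before the start.

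Dkk2: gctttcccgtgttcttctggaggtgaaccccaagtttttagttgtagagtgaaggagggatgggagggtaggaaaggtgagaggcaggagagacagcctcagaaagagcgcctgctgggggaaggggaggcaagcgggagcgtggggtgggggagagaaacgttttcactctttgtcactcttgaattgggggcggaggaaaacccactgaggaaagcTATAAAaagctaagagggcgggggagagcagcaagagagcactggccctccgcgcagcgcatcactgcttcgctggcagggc

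Such windows were held for 5 of the 10 genes, Wnt2b, Wnt4, Rspo1, Sfrp2 and Dkk2. TATAAA, searched on both strands and chosen after the window had been read, matched Dkk2 alone of the 5 and 13.6% of all 32851 windows. The TCF/LEF letters CTTTGAT, searched on both strands, matched none of the 5 and 3.73% of all windows. The AP-1 letters TGANTCA, which read alike on both strands, matched none of the 5 and 7.81% of all, and the NF-kB consensus, on both strands, matched Rspo1 and Sfrp2 and 8.46% of all. The windows also differed in base composition, with 11 CpG dinucleotides and 57.7% G or C for Dkk2 against 22 to 51 and 66.0% to 84.3% for the other 4. The median over all windows was 7 CpG and 52.7%. These matches describe letters, and the arrays measured no binding.

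**Figure D3:**
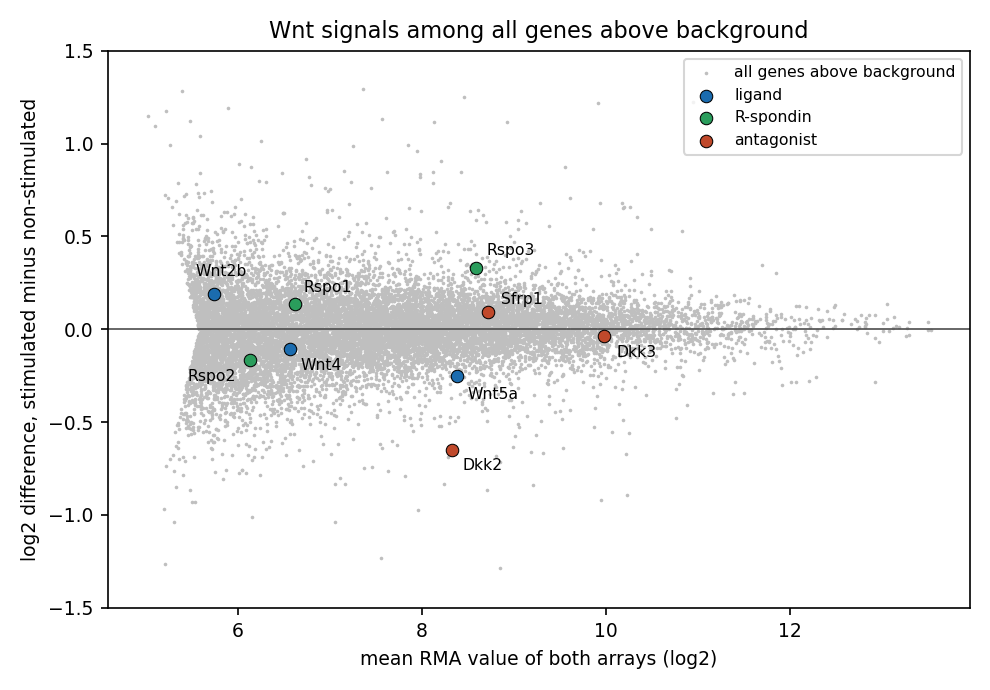
Log2 difference (vertical axis) against the mean RMA value of both arrays (log2, horizontal axis) for the 14068 genes above background in grey, with the 9 Wnt signals above background coloured by role; 12 genes lie outside the vertical limits of 1.5. Dkk2 at -0.65 lies below the main cloud of points, and Rspo3 at 0.33 and Wnt5a at -0.25 lie near its edges.

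The smooth muscle genes of the marker list read lower with homogenate: Acta2 at 13.07 and 12.78, Des at 7.85 and 7.23, and Myh11 at 9.31 and 8.79. Pdgfra, on the same list, read higher, at 9.10 and 9.66, which is 1.47-fold and outside the range of its set. Des, Myh11 and Pdgfra are named after their values were seen. At 1.2-fold 1 gene of the list (7.14%) was higher, against 6.11% of all genes, and 3 (21.4%) were lower, against 6.91%. Over the whole fibroblast and myofibroblast list 6 of 14 read higher and 8 lower, and the summed linear signal was 43988 and 42931. Of 7 nerve and glia genes 6 were above background, 5 of them lower, with a summed linear signal of 1416 and 1343. The 2 highest, Uchl1 and Tubb3, read 8.62 and 8.51, and 8.11 and 8.24. Sox10, named after its values were seen, read 8.22 and 8.05. The sum was 656 and 672 for 15 macrophage genes (5 above background), 498 and 534 for 10 endothelial genes (5 above), 648 and 610 for the epithelial genes and 359 and 332 for 6 mesothelial genes (3 above). For 9 eosinophil genes (2 above) the sum was 290 and 269. The part of these cell types in the Dkk2 and Wnt5a values was not tested. In bulk RNA, fewer cells of a type and less RNA per cell cannot be told apart.

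The wider pathway gave small differences in both directions. Of 113 further genes listed for Wnt signalling, 108 were on the array under those symbols and 97 were above background, of which 49 read higher and 47 lower, with a median of 0.01. None reached 2-fold. At 1.5-fold 0 were higher, against 0.796% of all genes, and 2 (Ror1 and Wnt10b), 2.06% of the 97, were lower, against 0.64%. At 1.2-fold 5 were higher, 5.15% of the 97 against 6.11% of all genes, and 12 were lower, 12.4% against 6.91%. These counts, like the shares over all genes, take values as read, also where 1 array is under background. Wnt10b was under background with homogenate, and with its bound of at least 1.05-fold it passes neither 1.5-fold nor 1.2-fold. Rnf43, with a bound of at least 1.17-fold, is not past 1.2-fold.

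On the receiving side, 18 of 19 Wnt receptor genes were above background, 7 higher and 11 lower, with a median of -0.06. Ror1, the receptor tyrosine kinase that binds Wnt5a, read 6.86 and 6.19, 1.60-fold lower, which 52 of all genes reached downwards. Mcam, an adhesion molecule reported to bind Wnt5a, read 10.13 and 9.61, 1.44-fold lower. Fzd7, a Frizzled of stem and progenitor cells, read 8.69 and 8.34, 1.28-fold lower. These 3 are named for the size of their differences. Of other receptors, Ror2 read 7.16 and 6.89, Ptk7, a co-receptor of planar polarity, 8.42 and 8.46, and Fzd5 6.85 and 6.92. Their differences were -0.27, 0.04 and 0.06, all inside the ranges of their sets. All 3 were named after their values were seen, so no direction is drawn from them. The atypical Wnt receptor Ryk read 11.14 and 11.04 and the co-receptor Lrp6 9.84 and 9.76. At 1.2-fold 0 of the 18 were higher, against 6.11% of all genes, and 4 (22.2%) were lower, against 6.91%.

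Genes that release Wnts or hold them at the surface differed one by one. The acyltransferase gene Porcn and the carrier gene Wls, needed by every cell that secretes Wnts, read 7.93 and 7.91, and 10.64 and 10.66. Gpc4, a heparan sulphate proteoglycan that binds Wnts, read 9.54 and 9.05, 1.41-fold lower. Sulf1, an enzyme that trims those sulphate chains, read 9.58 and 9.97, 1.32-fold higher. Gpc6 read 10.06 and 9.82, and Sdc2 10.82 and 10.88. The 9 genes split into 4 higher and 5 lower (median -0.02).

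For R-spondin reception, the receptor gene Lgr4 read 8.05 and 8.09 and the ubiquitin ligase gene Znrf3 7.15 and 7.10. Rnf43 was above background on the non-stimulated array alone, at 5.79 and 5.49, at least 1.17-fold lower. Lgr5, the receptor that marks crypt stem cells, was under background at 5.34 and 5.17. Of the 4 genes above background 2 were higher and 2 lower.

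Of the other Wnt ligands and Rspo4, 13 of 17 were above background, 5 higher and 7 lower, and Wnt7b was equal on both arrays. With differences centred on a lowess trend the split was 8 higher and 5 lower, so no direction can be given. Wnt10b and Wnt3a were under background with homogenate, which leaves at least 1.05-fold and at least 1.41-fold lower, and with that bound Wnt10b is not past 1.5-fold. Wnt9b read 6.19 and 6.53, 1.27-fold higher, and Wnt9a 6.83 and 6.82. Of the other antagonists, 13 of 17 were above background, 8 higher and 5 lower, with a median of 0.14. That median was 0.05 with values under background raised to it and 0.03 with background at the 99th percentile, and the mean was 0.06. Frzb, an Sfrp relative that binds Wnts, read 6.04 and 6.40, 1.28-fold higher. Igfbp4, which also binds Frizzled and Lrp6, read 8.90 and 9.09. Apcdd1, a membrane antagonist and Wnt target, read 8.73 and 8.39, 1.27-fold lower and outside the range of its set. Draxin was under background with homogenate and at least 1.22-fold lower.

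**Figure D4:**
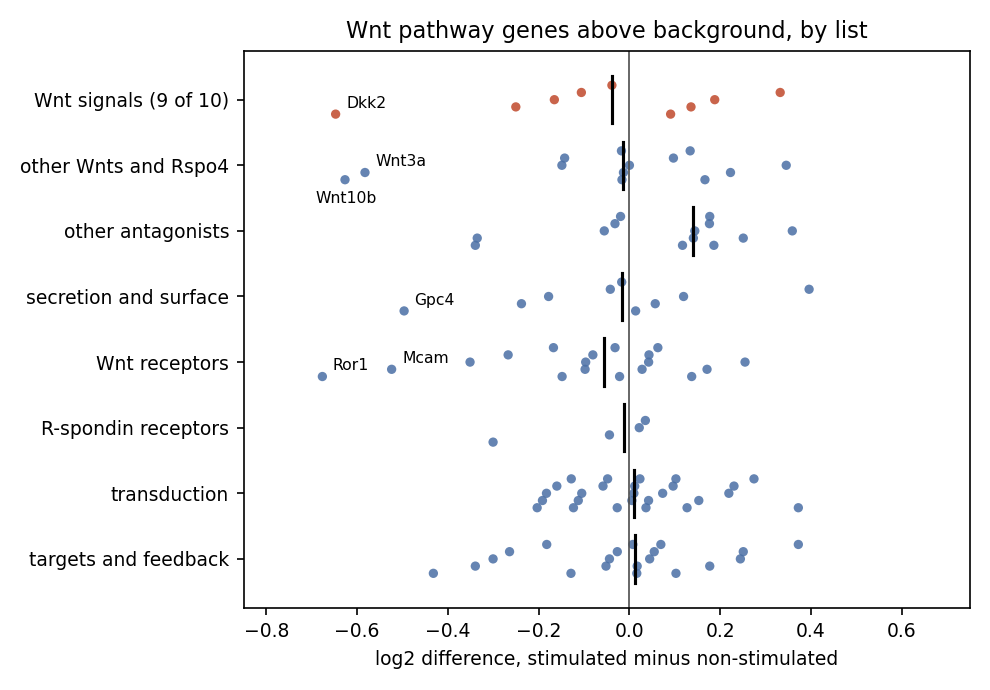
Log2 difference (horizontal axis, stimulated minus non-stimulated) of every gene above background in the Wnt signals and in 7 lists of pathway genes, 1 point per gene, with a black bar at each median. The medians lie between -0.06 and 0.14, and the genes furthest to the left, which carry their names, are Dkk2, Wnt3a, Wnt10b, Gpc4, Ror1 and Mcam.

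Genes that Wnt signalling is known to switch on were split in direction. Of 20 above background, 11 read higher and 9 lower (median 0.01). At 1.2-fold 1 (5%) was higher, against 6.11% of all genes, and 4 (20%) were lower, against 6.91%. The 4 were Nkd1, Apcdd1, Ephb3 and Rnf43. Rnf43 was under background with homogenate, and its bound of at least 1.17-fold is not past 1.2-fold. Apcdd1 is also on the list of other antagonists. Axin2, the general feedback target, read 6.51 and 6.52, a difference of 0.01. Nkd1, a feedback inhibitor that acts on Dvl proteins, read 6.20 and 5.77, 1.35-fold lower, inside the range of its set. Lef1, a partner of beta-catenin on DNA, passed background on the stimulated array alone, at 5.51 and 5.88, which makes it at least 1.23-fold higher there. Ccnd1 read 10.87 and 10.74, and Ccn4 11.08 and 11.05. Within the cell, 15 of 26 transduction genes read above their untreated value and 11 below it (median 0.01). Ctnnb1, which encodes beta-catenin, read 10.93 and 11.02, Gsk3b, the kinase that marks it for destruction, 11.02 and 11.04, Pygo1 7.24 and 7.51, and Tle1 7.06 and 7.29.

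Of 26 other niche genes of stroma, 21 were above background, 11 of them higher and 9 lower (median 0.05). At 1.2-fold 6 (28.6%) were higher, against 6.11% of all genes, and 1 (4.76%) was lower, against 6.91%. At 1.5-fold 5 (23.8%) were higher, against 0.796%, and 1 (4.76%) lower, against 0.64%. At 2-fold 2 (9.52%) were higher, against 0.192%, and 0 lower, against 0.0426%. The list was chosen with earlier results of these data known. The 3 largest differences exceeded those of Dkk2 and Rspo3: Bmp2 read 7.00 and 8.13, the epithelial growth factor gene Fgf7 8.37 and 9.48, and Bmp4 8.44 and 7.47. Il6, at 7.46 and 8.42, and Ereg, at 8.94 and 9.62, also differed by more than Dkk2. Il6 and Ereg are named after their values were seen. Grem1, the BMP antagonist of crypt base stroma, read 12.32 and 12.37, and Cd81, a marker of that stroma, 13.00 and 12.93.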

How the data were processed

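RNA of mouse small intestinal myofibroblasts was read on the GeneChip Mouse Gene 2.0 ST array, 1 array per condition. The authors deposited log2 values, made with Affymetrix Expression Console and RMA per the submitters' processing notes; no source used here gives versions or a genome build. RMA gives both arrays 1 distribution of values, so an overall shift is not visible. The number of arrays limits the precision.

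Of 41345 probesets, 23521 were paired with 1 gene by the platform annotation, with symbols from RefSeq's GRCm38.p6 table, and the probeset with the highest mean stood for a gene. Background was set, per array, at the 95th percentile of 1407 receptor probesets. Genes above it on at least 1 array were compared. A gene under it on 1 array has its fold given as "at least", against the background level. Differences were computed in Python 3.11.15 with pandas 2.3.3 and tested on simulated data; with 1 array per condition no test was possible.

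The members and lists were chosen with earlier results of these data known. Named from each pathway list were the 2 genes with the highest mean, up to 3 with the largest difference, and Axin2, Lgr4, Lgr5, Fzd7, Lrp6, Ctnnb1, Grem1, Porcn and Wls. The rule also names the 2 highest genes of each marker list, of which some are left out here. Alternatives changed the filter, the probeset, the centring (on the median or a lowess trend), the folds and the summary of a list.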

Additional observations from a re-analysis of the deposited data

How the results depend on the processing

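Each condition is 1 pooled array, so no replicate could be left out and no value has an error. No paired analysis was possible because each condition has 1 array. All 9 genes above background kept their sign with centring on the median or a lowess trend. Centring on the median moved every gene by only 0.0016. No filter, values raised to background and the mean of a gene's probesets could not change their differences. Each of the 9 has 1 probeset and lay above background on both arrays. Dkk2 ran from -0.66 to -0.65 and Rspo3 from 0.32 to 0.33. With background at the 99th percentile of the receptor probesets, 6 of the 10 genes stayed above it, without Wnt2b, Wnt4, Rspo2 and Sfrp2, and 3 in place of 5 read lower. The median over the group, -0.04, was 0.03 there and without Dkk2, -0.07 without a filter and -0.05 as a mean or with lowess centring. Counts at each fold were the same under the alternatives run. The second probeset of Sfrp2 was also under background. Low signal leaves Sfrp2 without a measurable difference and Wnt2b close to background.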
